A study of Mus musculus with 6 samples.

Results

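The genes examined here release arachidonate from phospholipids and turn it into prostanoids and leukotrienes, and were measured in immortalized bone marrow-derived macrophages (BMMs) of Aif1-/- and WT mice. They are 10 in number, with 4 phospholipases A2 (Pla2g5, Pla2g4a, Pla2g7 and Pla2g15), both cyclooxygenases (Ptgs1 and Ptgs2), the prostaglandin E synthase Ptges, and Alox5, Alox5ap and Lta4h of the leukotriene route, out of 47729 genes in the count tables. They were chosen by function around Pla2g5, with earlier results of these data known. Pla2g5 was itself selected on its measured values because its count was much higher in Aif1-/- than in WT libraries. The Pla2g5 difference is therefore described here and not tested. All 10 genes had a count in some library, and 9 of them passed the filter on low counts that left 17406 genes for testing.

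The Aif1-/- and WT groups held 3 libraries each. Aif1 encodes allograft inflammatory factor 1, also known as IBA1, a calcium-binding protein of macrophages. Both groups came from marrow of 8-week-old mice on the C57BL/6J background, and the Aif1-/- allele was the only stated difference between them. Marrow cells were grown into macrophages with the growth factor CSF-1 at 120 ng/ml in medium with 10% serum, immortalized with the SV40 large T antigen, and harvested at passages 3 to 5. The large T antigen was present in both genotypes, and no added stimulus was stated. The 3 libraries of a genotype are described as biologically independent animals, and p-values measure the spread between these libraries.

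Phospholipases A2 cut the fatty acid at the middle position of a phospholipid, and when that fatty acid is arachidonate it becomes the substrate of 2 routes. Cyclooxygenases make prostaglandin H2, which terminal synthases convert to prostaglandins and thromboxane. Alox5 (5-lipoxygenase), helped by the membrane protein Alox5ap, makes leukotriene A4, which Lta4h hydrolyses to leukotriene B4. Macrophages are known for running both routes and for having both constitutive Ptgs1 and inducible Ptgs2.

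Library totals ran from 17707986 to 29314253 counts in genes. Aif1 was counted 4, 4 and 1 times in the Aif1-/- libraries, against 220, 157 and 239 times in the WT libraries, which matches the labels. Aif1-/- libraries resembled each other more closely than WT libraries did. The chi-square per degree of freedom between libraries of one genotype was 2.52 to 3.54 for Aif1-/- pairs and 11.4 to 49.8 for WT pairs, and reads in no annotated gene made up 33.6% to 35.7% of Aif1-/- reads and 25.5% to 40.4% of WT reads. All 8 macrophage markers examined were expressed, with a summed level of 5430 to 5517 TPM (transcript level scaled to gene length and library size) in Aif1-/- libraries and 4196 to 4506 TPM in WT libraries. Of these markers, 6 were called higher and 1 lower in Aif1-/- BMMs, where a call is an edgeR adjusted p below 0.05 over all tested genes. Over all tested genes, 8.04% were called higher and 10.5% lower. The platelet marker list, relevant because platelets carry Ptgs1, Tbxas1 and Alox5ap RNA, summed to 265 to 277 TPM in Aif1-/- libraries and 128 to 136 TPM in WT libraries. Of the 4 platelet markers tested, 3 were called higher, namely Pf4, which macrophages also express and which held most of the sum (log2 difference 0.97, edgeR adjusted p = 1.7e-05), Treml1 (1.94, edgeR adjusted p = 0.000264) and Ppbp (4.41, edgeR adjusted p = 0.0043). Treml1 had 281, 202 and 232 counts in Aif1-/- libraries and 51, 121 and 69 in WT libraries. Ppbp had 18, 13 and 25 counts in Aif1-/- libraries and 3, 0 and 0 in WT libraries. It passed the filter on low counts through its Aif1-/- libraries alone, so its adjusted p is given as a description. Itga2b was not called, Gp1bb was at 0 counts, and Gp9 and Gp6 had no more than 2 counts in any library. The part of these marker and library differences in the results was not tested. Of 7 mast cell markers, 6 were at 0 in all libraries, and of 7 neutrophil markers, 4 were. Of 5 lymphocyte markers, 3 were, and no library held more than 11 counts of any. Of 6 fibroblast and endothelial markers, 2 were tested. Kdr was called lower (log2 difference -0.49, edgeR adjusted p = 0.0026) and Cdh5 was not called. Kdr had 796, 497 and 529 counts in Aif1-/- libraries and 1022, 1169 and 1043 in WT libraries, and its part in the results was not tested. In bulk RNA, fewer cells that express a gene and less RNA per cell cannot be told apart.

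Pla2g5 encodes the group V secreted phospholipase A2 (ENSMUSG00000041193, chromosome 4, 138799244 to 138863482, minus strand, GRCm38). It was counted 369, 230 and 249 times in the Aif1-/- libraries, against 3, 6 and 1 times in the WT libraries. Every Aif1-/- library was far above every WT library. After normalization for library size the counts averaged 320 ± 11.9 in Aif1-/- BMMs and 2.98 ± 2.12 in WT BMMs (SD, n = 3 each). The log2 difference was 6.69 ± 0.30 (standard error, SE), which placed Pla2g5 at rank 16 from the top among the 17406 tested genes. Because the WT level rests on 10 reads in all, the ratio of the summed counts, 108, has a wide 95% counting interval of 58.3 to 225, which covers counting error only. The WT libraries also decide the size of the difference, which was 7.35 on the log2 scale without WT replicate 2 and 6.24 without WT replicate 3.

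The level in Aif1-/- BMMs was moderate. In TPM, which corrects for transcript length, Pla2g5 stood at 11.6, 10.9 and 11.7 in the Aif1-/- libraries, and at 0.111, 0.200 and 0.0268 in the WT libraries. It was the seventh most abundant of the 10 genes in Aif1-/- BMMs, and in WT BMMs it was the lowest, in a range that overlapped that of Pla2g7.

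**Figure D1:**
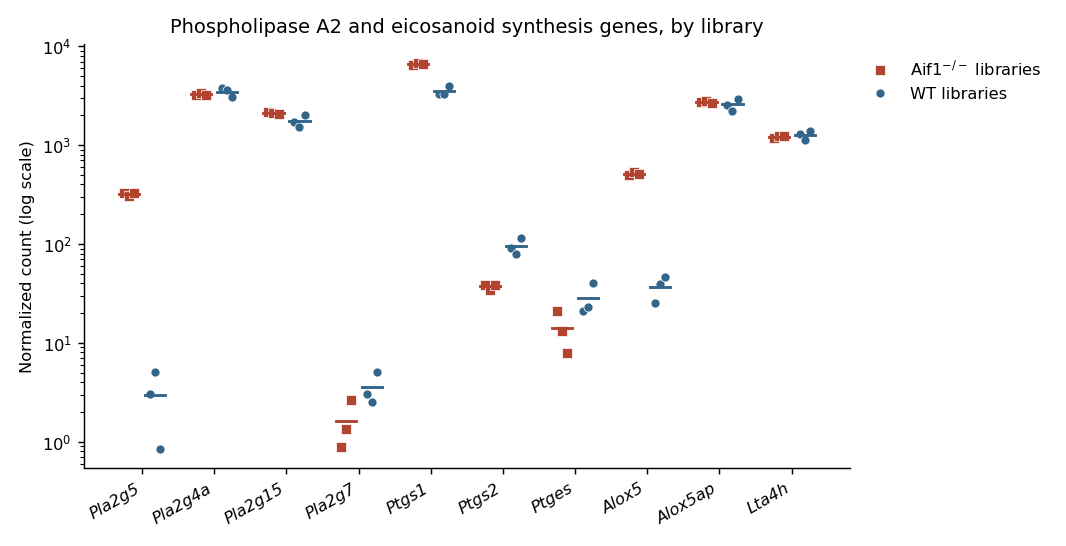
Normalized counts (vertical axis, log scale) of the 10 genes in each library, with Aif1-/- libraries as squares left of WT libraries as circles and the mean of 3 libraries as a bar. Pla2g5 and Alox5 separate the genotypes most widely, Ptgs1 is higher and Ptgs2 lower in Aif1-/- libraries, and the Pla2g4a, Alox5ap and Lta4h groups overlap.

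Pla2g5 lies in a cluster of secreted phospholipase A2 genes on chromosome 4, and its neighbour Pla2g2e, a group II enzyme, went the other way. Pla2g2e was counted 27, 14 and 15 times in Aif1-/- libraries, against 91, 103 and 128 times in WT libraries. The groups did not overlap, and the log2 change was -2.18 ± 0.24 (SE, edgeR adjusted p = 0.000109). The Pla2g2e start lies 14.5 kb from that of Pla2g5.

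Other genes of the cluster were near or at 0 in WT BMMs. Pla2g2d, a group II enzyme, had 8, 4 and 8 counts in Aif1-/- libraries and 0 in each WT library. With the WT group set to a detection floor of 3 counts in all, the ratio is 8.47. At the observed WT counts of 0, the 95% counting interval of the ratio starts at 6.27. Pla2g2a had 23, 7 and 11 counts in Aif1-/- libraries and 0, 0 and 2 in WT libraries, a ratio of 26.0 with a 95% counting interval of 6.77 to 222. Pla2g2a is annotated as a polymorphic pseudogene and lies inside the Pla2g5 gene on the opposite strand, and a share of unspliced Pla2g5 RNA among its reads was not tested. Reads from a stranded kit were counted with HTSeq defaults, which use strand, but whether that setting fitted the orientation of these reads was not tested either. Pla2g2d, by contrast, lies outside the Pla2g5 gene, with its start at -87.7 kb from the Pla2g5 start along the chromosome. Pla2g2c was at 0 in all libraries and Pla2g2f had 1 count in 1 Aif1-/- library. Pla2g2a and Pla2g2d were too low for the filter and were not tested with the other genes.

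Beyond the cluster, the nearest genes that passed the filter were both lower in Aif1-/- BMMs. Otud3, a deubiquitinase, changed by -0.53 on the log2 scale (edgeR adjusted p = 0.0212) and Tmco4 by -0.44 (edgeR adjusted p = 0.0277).

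**Figure D2:**
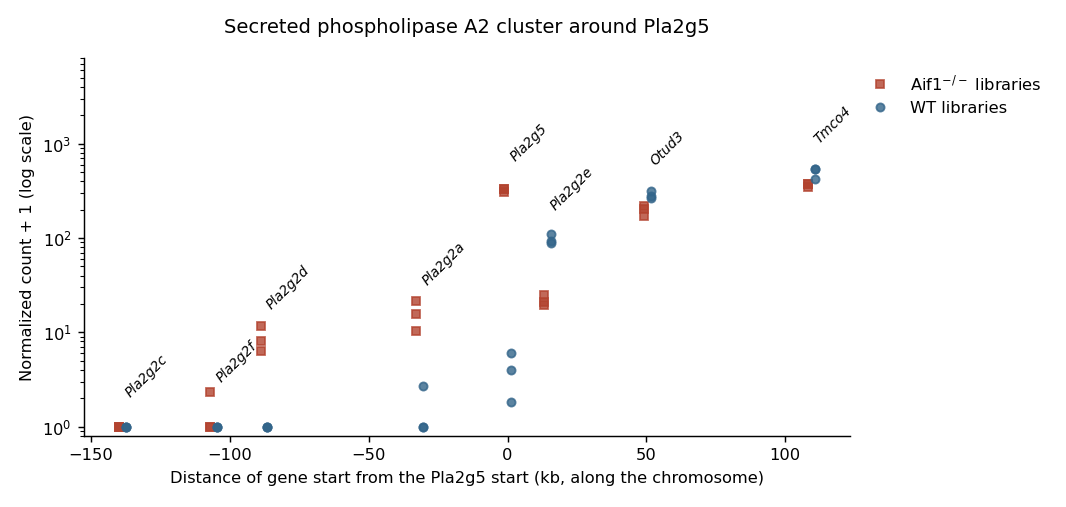
Normalized count plus 1 (vertical axis, log scale) of genes around Pla2g5 against the distance of each gene's start from the Pla2g5 start in kb, with Aif1-/- libraries as squares left of WT libraries as circles. Pla2g5, Pla2g2a and Pla2g2d are higher in Aif1-/- libraries, whereas Pla2g2e, Otud3 and Tmco4 are lower.

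The make-up of the secreted phospholipases is described only. Pla2g5, which was selected for its difference, is part of the sum and enters every share through it. Summed over the 11 genes of the secreted list, the level averaged 23.2 ± 1.32 TPM in Aif1-/- BMMs and 20.7 ± 1.16 TPM in WT BMMs (SD, n = 3 each). Pla2g5 made up 49.0% ± 1.41 of that sum in Aif1-/- BMMs and 0.530% ± 0.388 in WT BMMs. The share of Pla2g2e was 9.96% ± 0.821 in Aif1-/- BMMs and 52.0% ± 2.84 in WT BMMs. Its own level averaged 2.32 TPM in Aif1-/- BMMs and 10.7 TPM in WT BMMs. Pla2g12a, a group XII enzyme and the most abundant of the list over all libraries, held 30.7% ± 2.68 in Aif1-/- BMMs and 41.6% ± 1.43 in WT BMMs, and its own change of -0.27 ± 0.12 (SE) did not pass the test (edgeR adjusted p = 0.163).

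The sequences upstream of Pla2g5 and Pla2g2e are shown because these neighbours moved in opposite directions. They are RefSeq promoter sequences of GRCm38.p6, the 250 bases before each annotated start, read 5′ to 3′ on the strand of the gene. RefSeq lists 2 starts for Pla2g5, and the counts per gene do not say which one is used. Capitals mark matches, on either strand, to any of 6 short motifs. The TATA box was searched as TATAAA, found in 12.4% of the 32851 promoter windows of this length. The GC box was searched as GGGCGG, found in 32.7%, and the E-box as CACGTG, found in 6.02%. The AP-1 motif was searched as TGANTCA, found in 6.75%, the C/EBP motif as TTNNGNAA, found in 36.8%, and the ETS/PU.1 core as GAGGAA, found in 23.3%. No matches overlapped in the windows printed here.
Pla2g5 upstream start (chr4:138863470-138863719, minus strand): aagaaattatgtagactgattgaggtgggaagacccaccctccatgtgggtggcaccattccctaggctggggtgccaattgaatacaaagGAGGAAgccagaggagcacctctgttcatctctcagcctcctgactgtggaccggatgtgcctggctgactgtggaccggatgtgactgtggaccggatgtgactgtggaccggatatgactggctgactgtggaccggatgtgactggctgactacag
Pla2g5 downstream start (chr4:138819258-138819507, minus strand): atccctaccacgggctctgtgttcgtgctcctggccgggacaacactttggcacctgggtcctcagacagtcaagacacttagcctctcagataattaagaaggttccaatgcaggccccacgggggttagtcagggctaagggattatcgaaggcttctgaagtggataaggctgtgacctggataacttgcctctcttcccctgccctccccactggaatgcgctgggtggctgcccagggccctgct
Pla2g2e (chr4:138877692-138877941, plus strand): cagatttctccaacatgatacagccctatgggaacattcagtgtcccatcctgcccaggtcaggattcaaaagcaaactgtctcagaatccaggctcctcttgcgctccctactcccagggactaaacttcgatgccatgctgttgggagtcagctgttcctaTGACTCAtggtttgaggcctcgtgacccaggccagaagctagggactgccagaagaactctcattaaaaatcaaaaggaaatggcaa

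The upstream Pla2g5 window held 1 match, the ETS/PU.1 core at positions -159 to -154, and the downstream window held none of the 6 motifs. The upstream window also held 5 copies of the 15-base unit gactgtggaccggat between positions -117 and -19. As many copies of any 15-base unit were found in 0.177% of promoter windows. The Pla2g2e window held 1 match, to the AP-1 motif, at positions -87 to -81. A match is a description of letters, not of a bound site.

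For the intracellular phospholipases Pla2g4a and Pla2g15 no difference was called. Pla2g4a, the calcium-dependent cytosolic enzyme with a preference for arachidonate, averaged 52.5 ± 1.57 TPM in Aif1-/- BMMs and 56.8 ± 11.4 TPM in WT BMMs (SD, n = 3 each). Its normalized counts were 3216, 3387 and 3214 in Aif1-/- libraries and 3767, 3624 and 3055 in WT libraries, so the groups overlapped. The log2 difference of -0.09 ± 0.08 (SE) did not pass the test (edgeR adjusted p = 0.559), although it did without WT replicate 3 (-0.17, adjusted p = 0.0296). At these levels Pla2g4a RNA was well above Pla2g5 RNA in both genotypes.

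Pla2g15, the lysosomal phospholipase A2, stood at 72.9, 71.8 and 69.9 TPM in Aif1-/- libraries, against 60.3, 57.6 and 61.1 TPM in WT libraries. The groups did not overlap, but in normalized counts the lowest Aif1-/- library, at 2049, was close to the highest WT library, at 2010.5. The log2 difference was 0.26 ± 0.10 (SE), short of the threshold (edgeR adjusted p = 0.0902). It passed without WT replicate 3 (adjusted p = 0.000656) and with the share of reads in no gene as a covariate (adjusted p = 0.000285).

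Pla2g7, the secreted enzyme that inactivates platelet-activating factor (PAF), was barely detected. It had 1, 1 and 2 counts in Aif1-/- libraries and 3, 3 and 6 in WT libraries, and was not tested. The ratio of summed counts was 0.424 with a 95% counting interval of 0.0996 to 1.40. Pla2g7 lies 8.39 Mb from the targeted Aif1 gene, on chromosome 17. The intracellular PAF acetylhydrolases were expressed, led by Pafah1b1 at 81.4 TPM in Aif1-/- BMMs and 83.3 TPM in WT BMMs, and none of the 4 listed passed the test.

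Among other phospholipase genes, Pla2g16, an adipose-type phospholipase, had 133, 84 and 100 counts in Aif1-/- libraries, against 361, 339 and 431 in WT libraries. It fell by 1.49 on the log2 scale (SE 0.15, edgeR adjusted p = 5.12e-05). Anxa1, a calcium-dependent phospholipid-binding protein known as an inhibitor of cytosolic phospholipase A2, was the most abundant of the regulators, at 325.0 TPM in Aif1-/- BMMs and 450.4 TPM in WT BMMs. It fell by 0.46 (SE 0.08, edgeR adjusted p = 0.00220). None of the 5 calcium-independent phospholipases passed, the most abundant being Pnpla7 at 49.97 TPM in Aif1-/- BMMs and 50.4 TPM in WT BMMs.

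Enzymes that put fatty acids back into lysophospholipids, and so oppose phospholipase A2, moved in both directions. Of the 7 tested, 3 rose and 2 fell, where 8.04% of all 17406 tested genes were called higher and 10.5% lower. Lpcat2, an acyltransferase that also makes PAF, rose to 78.5 TPM in Aif1-/- BMMs, against 44.7 TPM in WT BMMs, by 0.81 ± 0.09 on the log2 scale (SE, edgeR adjusted p = 0.000151). Lpcat1 rose by 0.52 ± 0.07 (edgeR adjusted p = 0.000370) and Lpcat4 by 1.23 ± 0.16 (edgeR adjusted p = 0.000386). Lpcat3, the family member that favours arachidonate, did not pass the test, at 20.7 TPM in Aif1-/- BMMs and 20.97 TPM in WT BMMs. Summed over the 4 Lpcat genes, the level was 153 ± 1.86 TPM in Aif1-/- BMMs and 99.4 ± 1.89 TPM in WT BMMs (SD, n = 3 each). The 2 that fell, named after their values were seen, were Mboat7 (-0.38, edgeR adjusted p = 0.0124) and Mboat1 (-0.35, edgeR adjusted p = 0.0216). The Mboat7 call was lost without Aif1-/- replicate 1 (adjusted p = 0.0905) or 2 (0.0625), and the Mboat1 call without Aif1-/- replicate 1 (adjusted p = 0.119) or 3 (0.139) or WT replicate 1 (0.0668). Acsl4, which loads arachidonate onto coenzyme A and was the most abundant gene of the group, had 80.2 TPM in Aif1-/- BMMs and 91.1 TPM in WT BMMs and did not pass (edgeR adjusted p = 0.176).

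The 2 cyclooxygenases moved in opposite directions. Ptgs1 encodes the constitutive enzyme COX-1 (ENSMUSG00000047250, chromosome 2, 36230426 to 36252272, plus strand). Its normalized counts were 6483, 6728 and 6630 in Aif1-/- libraries, against 3322, 3285 and 3986 in WT libraries. Every Aif1-/- library was above every WT library, and the log2 difference of 0.91 ± 0.08 (SE), or 1.87-fold, passed the test (edgeR adjusted p = 2.95e-05). Gm43621, an transcript of uncertain status annotated on the opposite strand across a Ptgs1 exon, was also higher (1.37 on the log2 scale, edgeR adjusted p = 0.0264). It held 139, 87 and 93 counts in Aif1-/- libraries and 51, 83 and 22 in WT libraries, small beside the 5035 to 7340 raw counts of Ptgs1 in Aif1-/- libraries.

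Ptgs2 encodes the inducible enzyme COX-2 (ENSMUSG00000032487, chromosome 1, 150100031 to 150108227, plus strand), and lies 138.7 kb from Pla2g4a. It was counted 44, 26 and 29 times in Aif1-/- libraries, against 90, 94 and 136 times in WT libraries. Normalized counts averaged 37.2 ± 2.27 in Aif1-/- BMMs and 95.03 ± 17.98 in WT BMMs (SD, n = 3 each) without overlap, a log2 difference of -1.35 ± 0.23 (SE, edgeR adjusted p = 0.00211). The Ptgs1 and Ptgs2 calls held under each of the 12 alternatives run. Ptgs2 was a minor part of cyclooxygenase RNA in either genotype, with 0.475% ± 0.037 of the summed TPM in Aif1-/- BMMs and 2.22% ± 0.187 in WT BMMs. The sum itself was 175 ± 3.48 TPM in Aif1-/- BMMs and 95.6 ± 2.61 TPM in WT BMMs.

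**Figure D3:**
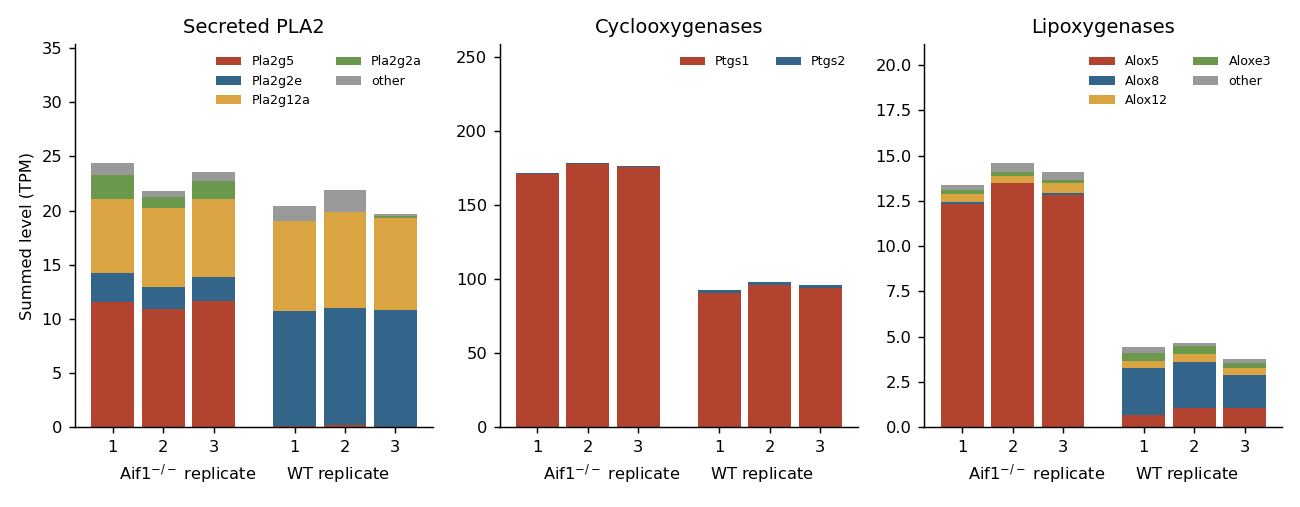
Summed TPM (vertical axis) of the secreted phospholipases A2, the cyclooxygenases and the lipoxygenases in each library, with the 3 Aif1-/- replicates left of the 3 WT replicates and colours for the genes. The secreted PLA2 sum averages 23.2 TPM in Aif1-/- and 20.7 TPM in WT libraries, mostly Pla2g5 and Pla2g12a in Aif1-/- libraries and Pla2g2e and Pla2g12a in WT libraries, cyclooxygenase RNA is almost all Ptgs1, and Alox5 fills the lipoxygenase bars of Aif1-/- libraries.

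The windows before the Ptgs1 and Ptgs2 starts are printed for the same reason, with motif matches in capitals as above.
Ptgs1 (chr2:36230176-36230425, plus strand): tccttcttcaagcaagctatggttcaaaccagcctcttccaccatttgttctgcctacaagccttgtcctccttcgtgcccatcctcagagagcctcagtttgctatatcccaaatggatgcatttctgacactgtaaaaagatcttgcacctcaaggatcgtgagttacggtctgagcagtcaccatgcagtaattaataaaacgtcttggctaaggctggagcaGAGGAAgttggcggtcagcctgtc
Ptgs2 (chr1:150099781-150100030, plus strand): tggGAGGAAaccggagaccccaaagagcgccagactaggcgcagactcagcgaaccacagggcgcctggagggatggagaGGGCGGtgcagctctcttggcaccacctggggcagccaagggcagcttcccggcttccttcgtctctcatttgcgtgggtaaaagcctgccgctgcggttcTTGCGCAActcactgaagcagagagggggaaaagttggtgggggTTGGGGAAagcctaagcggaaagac

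The Ptgs1 window held 1 match, the ETS/PU.1 core at positions -24 to -19. The Ptgs2 window held 4, an ETS/PU.1 core at -247 to -242, a GC box at -170 to -165 and C/EBP motifs at -69 to -62 and -25 to -18.

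Downstream of the cyclooxygenases, the thromboxane synthase rose and the inducible prostaglandin E synthase was scarce. Ptges, the microsomal synthase usually coupled to Ptgs2, had 24, 10 and 6 counts in Aif1-/- libraries and 21, 27 and 48 in WT libraries. The groups overlapped in normalized counts, with 21.2 at most in Aif1-/- libraries and 21.1 at least in WT libraries. In TPM they did not, with 0.551 at most in Aif1-/- libraries and 0.569 at least in WT libraries. The log2 difference of -0.95 ± 0.44 (SE) did not pass (edgeR adjusted p = 0.187). The most abundant E synthase was Ptges3, the cytosolic form also known as the co-chaperone p23, at 117 TPM in Aif1-/- BMMs and 105 TPM in WT BMMs (edgeR adjusted p = 0.133).

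Tbxas1, thromboxane A synthase, had 39.5 TPM in Aif1-/- BMMs and 23.3 TPM in WT BMMs, a rise of 0.79 ± 0.08 on the log2 scale (SE, edgeR adjusted p = 6.60e-05). Platelets also carry Tbxas1 and Ptgs1 RNA, and the summed platelet markers were 265 to 277 TPM in Aif1-/- libraries and 128 to 136 TPM in WT libraries. Most of that sum was Pf4, which macrophages also express. Of the 4 platelet markers tested, 3 were called higher and Itga2b was not called. A part of platelet RNA in the Tbxas1 and Ptgs1 differences was not tested. Akr1b3, an aldo-keto reductase with prostaglandin F synthase activity, rose by 0.48 ± 0.09 (edgeR adjusted p = 0.00468). Fam213b, a prostamide and prostaglandin F synthase, fell by 1.31 (SE 0.23, edgeR adjusted p = 0.00221), with 92, 64 and 59 counts in Aif1-/- libraries and 192, 173 and 316 in WT libraries. Hpgds, the haematopoietic prostaglandin D synthase, was among the most abundant of the terminal synthases, at 116 TPM in Aif1-/- BMMs and 101 TPM in WT BMMs, and did not pass (edgeR adjusted p = 0.0686). Ptgis, prostacyclin synthase, was at 0 in all libraries, and Ptgds had 1 count in 1 library. Of the 7 tested synthases besides Ptges, 2 rose and 1 fell, beside 8.04% called higher and 10.5% lower over all genes. Abcc4, a prostaglandin exporter, rose by 0.44 ± 0.07 (edgeR adjusted p = 0.00126), the reductase Ptgr1 stood at 42.3 TPM in Aif1-/- BMMs and 42.7 TPM in WT BMMs without passing (edgeR adjusted p = 0.983), and Hpgd, which inactivates prostaglandins, had 1 count in 1 library.

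Alox5, the enzyme that starts leukotriene synthesis (ENSMUSG00000025701, chromosome 6, 116410077 to 116461178, minus strand), had the largest log2 difference of the 10 genes after Pla2g5. It was counted 561, 405 and 389 times in Aif1-/- libraries, against 25, 46 and 55 times in WT libraries. Normalized counts averaged 515.7 ± 22.2 in Aif1-/- BMMs and 36.9 ± 10.8 in WT BMMs (SD, n = 3 each), with no overlap. The log2 difference was 3.79 ± 0.19 (SE, edgeR adjusted p = 3.66e-07), or 13.8-fold, and ranked 65 from the top among all genes tested. Leaving out any 1 library gave 3.59 to 3.98.

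For its partners no change was called. Alox5ap, the membrane protein that presents arachidonate to Alox5, was the most abundant of the 10 genes in both genotypes, at 196 ± 4.22 TPM in Aif1-/- BMMs and 186 ± 7.21 TPM in WT BMMs (SD, n = 3 each). Its normalized counts overlapped between genotypes, 2658 to 2785 in Aif1-/- libraries and 2229 to 2941 in WT libraries. In TPM the groups did not overlap, at 192.5 to 200.9 in Aif1-/- libraries and 177.9 to 191.1 in WT libraries. The log2 difference was 0.08 ± 0.10 (SE, edgeR adjusted p = 0.663). The difference passed without WT replicate 3 (0.19, adjusted p = 0.0469) and was -0.01 without WT replicate 2. Lta4h, the leukotriene A4 hydrolase, had 20.5 ± 0.483 TPM in Aif1-/- BMMs and 21.3 ± 0.857 TPM in WT BMMs, and its difference of -0.05 ± 0.09 (SE) did not pass (edgeR adjusted p = 0.785).

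Within the lipoxygenase family the pattern again ran both ways. Alox8, the mouse arachidonate 8-lipoxygenase, had 3, 0 and 3 counts in Aif1-/- libraries, against 88, 94 and 84 in WT libraries. The log2 change was -5.06 ± 0.47 (SE, edgeR adjusted p = 3.32e-05). Alox8 passed the filter on low counts through its WT libraries alone, so this adjusted p is given as a description. Alox5 made up 91.8% ± 0.800 of lipoxygenase TPM in Aif1-/- BMMs and 21.7% ± 6.43 in WT BMMs. Alox8 made up 0.459% ± 0.415 in Aif1-/- BMMs and 54.1% ± 5.78 in WT BMMs. The sum over 7 lipoxygenase genes was 14.03 ± 0.618 TPM in Aif1-/- BMMs and 4.29 ± 0.452 TPM in WT BMMs.

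The windows before the starts of these 2 lipoxygenase genes read as follows.
Alox5 (chr6:116461179-116461428, minus strand): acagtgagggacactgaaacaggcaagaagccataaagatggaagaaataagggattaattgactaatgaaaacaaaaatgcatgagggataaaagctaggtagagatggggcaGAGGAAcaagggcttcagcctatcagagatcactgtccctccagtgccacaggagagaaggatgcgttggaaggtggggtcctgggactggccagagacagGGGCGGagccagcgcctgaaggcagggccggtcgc
Alox8 (chr11:69197844-69198093, minus strand): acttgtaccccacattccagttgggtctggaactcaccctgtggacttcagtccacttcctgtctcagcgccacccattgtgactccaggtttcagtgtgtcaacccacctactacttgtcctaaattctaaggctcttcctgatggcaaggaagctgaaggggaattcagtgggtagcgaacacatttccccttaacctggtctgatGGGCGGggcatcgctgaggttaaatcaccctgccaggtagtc

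Alox5 held 2 matches, an ETS/PU.1 core at -136 to -131 and a GC box at -35 to -30, and Alox8 held 1, a GC box at -42 to -37. No window of the 7 printed held a TATA box or an E-box in the letters searched.

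For the steps after leukotriene A4, 8 genes besides Lta4h were listed, and 2 of them were at 0 in all libraries. Another was counted in every Aif1-/- library but almost undetected in WT libraries. Ggt5, which cleaves leukotriene C4 to leukotriene D4, had 30, 18 and 23 counts in Aif1-/- libraries and 0, 1 and 0 in WT libraries, a ratio of 90.2 with a 95% counting interval of 15.7 to 3613 (counting error only). The fitted log2 difference was 6.00 ± 0.70 (SE, edgeR adjusted p = 0.000170), and 7.71 without WT replicate 2, which held the only WT read. Ggt5 passed the filter on low counts through its Aif1-/- libraries alone, so this adjusted p is given as a description. Dpep2, a dipeptidase that acts on leukotriene D4, rose by 0.29 ± 0.07 on the log2 scale (SE, edgeR adjusted p = 0.0113), a call lost without Aif1-/- replicate 1 (adjusted p = 0.0742), 2 (0.0564) or 3 (0.0644). Ltc4s, leukotriene C4 synthase, had 17.9 TPM in Aif1-/- BMMs and 12.4 TPM in WT BMMs and did not pass (edgeR adjusted p = 0.226). Mgst2, a microsomal enzyme that can also make leukotriene C4, fell by 1.02 (SE 0.29, edgeR adjusted p = 0.0359) and was named after its values were seen. That call was lost with DESeq2 (adjusted p = 0.103), with no filter (0.0540), with a replicate block (0.0891), without any 1 of the Aif1-/- libraries (0.124 to 0.147) and without WT replicate 1 (0.0569).

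In the epoxide and hydroxylation branch, Ephx1, microsomal epoxide hydrolase, fell to 17.2 TPM in Aif1-/- BMMs, against 52.7 TPM in WT BMMs (log2 change -1.60 ± 0.09, SE, edgeR adjusted p = 1.05e-06). Cyp4f18, a mouse cytochrome P450 known to hydroxylate leukotriene B4, rose by 1.78 ± 0.22 (edgeR adjusted p = 0.000210), with 164, 84 and 108 counts in Aif1-/- libraries and 46, 41 and 42 in WT libraries. Cyp4f16 rose by 0.55 ± 0.13 (edgeR adjusted p = 0.0108), a call lost without Aif1-/- replicate 2 (adjusted p = 0.0564) or 3 (0.0521).

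Receptors for the products also split. Of the prostaglandin E2 receptors, Ptger4 rose by 0.59 ± 0.13 (SE, edgeR adjusted p = 0.01001) and Ptger2 fell by 0.76 (SE 0.11, edgeR adjusted p = 0.000803). The prostacyclin receptor Ptgir fell by 0.51 (SE 0.13, edgeR adjusted p = 0.0223). The Ptgir call was lost without Aif1-/- replicate 1 (adjusted p = 0.147) or 2 (0.0880), and the Ptger4 call without Aif1-/- replicate 2 (0.0681). Cysltr1, the receptor for leukotriene D4, rose by 0.54 ± 0.10 (edgeR adjusted p = 0.00285), at 22.9 TPM in Aif1-/- BMMs and 16.0 TPM in WT BMMs. The PAF receptor Ptafr fell by 0.70 (SE 0.11, edgeR adjusted p = 0.00149), at 22.1 TPM in Aif1-/- BMMs and 35.9 TPM in WT BMMs. The leukotriene B4 receptors Ltb4r1 and Ltb4r2 had no more than 2 counts in any library.

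**Figure D4:**
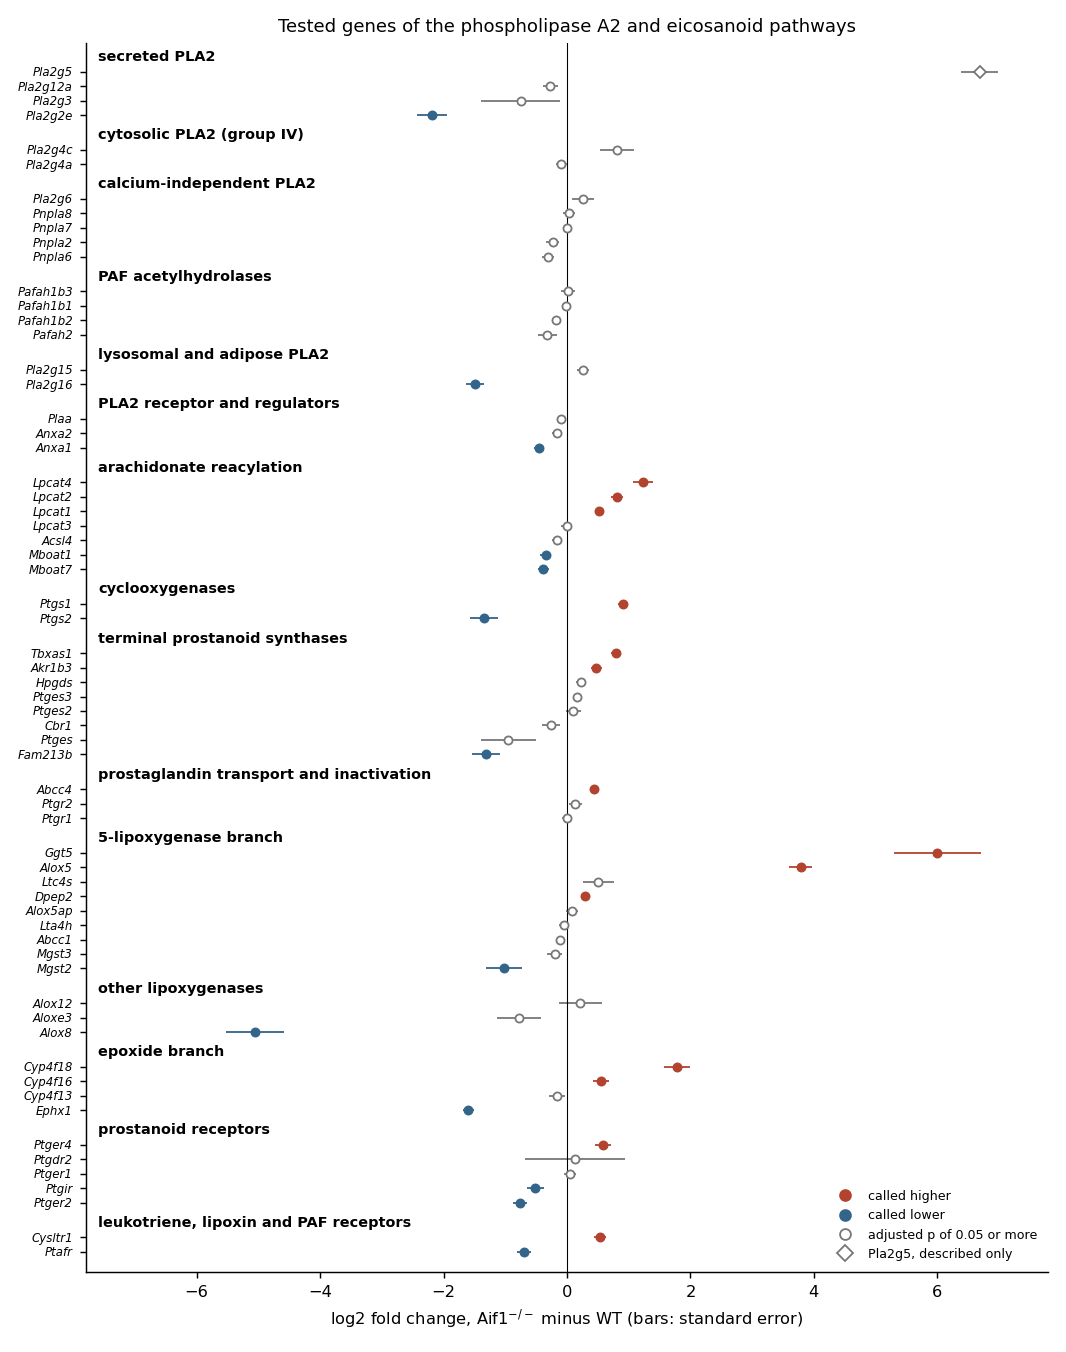
Log2 fold change of Aif1-/- over WT libraries (horizontal axis, bars for the standard error) for the tested genes of 15 functional lists, filled where the adjusted p was below 0.05. Most lists hold genes on both sides of 0, with Pla2g5 (diamond, described only), Ggt5 and Alox5 farthest to the right and Alox8 farthest to the left.

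Counted over the 8 tested members other than Pla2g5, 2 were called higher (Ptgs1 and Alox5), 1 lower (Ptgs2) and 5 not called, with a median log2 difference of 0.02. Across all 17406 tested genes, 8.04% were called higher and 10.5% lower, with a median of -0.0035. The members were picked with this contrast in view, so nothing is read from their count. Around them, 86 further genes of the 15 functional lists were examined. Of these, 11 were at 0 in all libraries, 54 were tested, 12 were called higher, 12 lower and 30 not called, with a median of -0.01. Among the called genes, Ggt5 and Alox8 passed the filter on low counts through a single genotype. Annotated exons shared with another gene can mix reads or leave them ambiguous, and 8 of the 12 higher and 8 of the 12 lower genes had none. Those with a shared exon were Tbxas1, Dpep2, Cyp4f18 and Ptger4 among the higher genes. Among the lower genes they were Mboat7, Fam213b, Ephx1 and Ptger2.

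Ordered by TPM, the 10 genes ran in Aif1-/- BMMs from Alox5ap (196) through Ptgs1 (175), Pla2g15 (71.5), Pla2g4a (52.5), Lta4h (20.5), Alox5 (12.9), Pla2g5 (11.4), Ptgs2 (0.833) and Ptges (0.368) to Pla2g7 (0.0571). No neighbours in this order overlapped over the 3 libraries. In WT BMMs the first 5 places were the same, and Ptgs2 (2.12), Alox5 (0.920), Ptges (0.724), Pla2g7 (0.123) and Pla2g5 (0.113) followed. There the libraries of Pla2g15 and Pla2g4a, of Alox5 and Ptges, and of Pla2g7 and Pla2g5 overlapped, so the order within each of those pairs is not set.

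Among 12129 genes with an average log2 CPM (counts scaled to library size) of at least 2, those whose levels over the 6 libraries were most like Pla2g5 were Rrbp1 (Pearson r = 0.9998), Ctsh (r = 0.9996) and Arhgap4 (r = 0.9996). These differed in size, with log2 differences of 0.43 for Rrbp1, a ribosome-binding protein of the endoplasmic reticulum, 2.50 for Ctsh, the protease cathepsin H, and 6.59 for Arhgap4. As the 6 points form 2 genotype clusters, 109 genes had r over 0.99, and the value describes likeness only.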

How the data were processed

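Ribosomal RNA-depleted total RNA (200 ng) of 3 Aif1-/- and 3 WT BMM cultures was sequenced. The authors deposited raw counts per gene, made by trimming (Trim Galore 0.5), alignment to GRCm38 with at most 1 location per read (TopHat2 2.0.13) and counting over Ensembl genes with default settings (HTSeq 0.6.1p1). Reads in no gene and ambiguous reads (4.55% to 7.15%) stayed out of library sizes. Single-location alignment can move reads between near-identical copies.

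Groups came from the labels. Genotypes were compared with edgeR 4.0.16 (R 4.3.3), by TMM normalization, the default filter and the quasi-likelihood test, with Benjamini-Hochberg adjustment over 17406 genes and a threshold of 0.05. SEs were derived from each log2 fold change and its F statistic (size over root F). An exact two-sided permutation of 3 against 3 libraries cannot give a p below 0.1 and was not used. TPM used exon lengths of GENCODE M21, which matched 47224 genes, with 0.160% of counts unmatched. Intervals and floors cover counting error only. Library totals of 17707986 to 29314253 counts set the precision. Promoter sequences came from RefSeq and matched 9 of the 10 members.

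Alternatives were RLE size factors, DESeq2 1.42.0, no filter and a filter of 50 counts in 3 libraries, a replicate block, reads in no gene as covariate, and leaving out each library. The restriction to genes with no shared exon was chosen after seeing the data. Members and lists were chosen with earlier results of these data known. Named genes were all members, in each list up to 3 called genes with the smallest adjusted p and the gene with the highest TPM, the chromosome 4 phospholipase cluster, tested genes within 200 kb of Pla2g5, and the 3 genes most like Pla2g5. Any other gene was named after its values were seen. Of the genes this rule takes, 1 is not reported here, and list genes it does not take are given by counts only.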

Additional observations from a re-analysis of the deposited data

How the results depend on the processing

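Ptgs1, Ptgs2 and Alox5 kept their direction and their call under all 12 alternatives run on them, at log2 differences of 0.86 to 1.01, -1.46 to -1.18 and 3.59 to 3.98. Pla2g5 ranged from 6.24 to 7.35 when 1 library was left out. Leaving out 1 library gave 2 to 4 members called higher and 1 to 2 called lower, with the highest counts, 4 and 2, both without WT replicate 3. Among members with no shared exon, 1 was called higher, because Ptgs1 then drops from the list by construction. Differences near 0 changed sign when 1 library was left out, with Alox5ap between -0.012 (without WT replicate 2) and 0.19, and Lta4h between -0.12 and 0.029 (without WT replicate 3). Pla2g15 also passed with no filter (adjusted p = 0.0416). Among the wider pathway genes, leaving out 1 library gave 10 to 16 called higher and 8 to 16 called lower, and 7 genes lost their call in some alternative (Mboat7, Mboat1, Mgst2, Dpep2, Cyp4f16, Ptger4 and Ptgir) with no reversal. The cause of these changes was not tested. Over all genes, 3231 were called, against 5517 with the share of reads in no gene as covariate and 2040 to 4889 with 1 library left out.

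Same-numbered libraries did not deviate together (correlations of 0.06, -0.08 and -0.09), and different-numbered ones gave -0.07 to 0.13. With 3 libraries per genotype, these values cannot settle whether the numbers pair the libraries. With a replicate block, 2 members were called higher and 1 lower, Pla2g5 differed by 6.69, and 12 pathway genes were called higher and 11 lower. Depth limits Pla2g5 in WT libraries, Pla2g7, Ptges and the Pla2g2 genes, whose levels rest on few reads.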
